A study of Mus musculus with 11 samples.

Results

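The Spata (spermatogenesis-associated) genes are the protein-coding genes of the RefSeq annotation of mouse build GRCm38.p6 whose symbol is Spata followed by a number. The rule gave 24 genes of 21887 protein-coding genes on assembled chromosomes. They were examined in ChIP-seq peak lists of the transcription factors RFX1, RFX2 and RFX3 from mouse ependymal cells, which line the ventricles of the brain and carry many motile cilia. The cells were grown from OF1 mice, an outbred stock, of wild-type genotype, by ex vivo differentiation of cells of the lateral brain walls. Their age is given as P0 and the tissue as embryonic brain. All groups shared this genotype, and the labels name no transgene or treatment. Each RFX was pulled down in 2 ChIP samples with a separate antibody, and for RFX2 the antibody lot differed between the pair. Input chromatin, which received no antibody, was sequenced in 2 samples each for RFX1 and RFX2 and in 1 for RFX3.

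The deposited lists merge the replicates of each RFX. They hold 7440 RFX1 peaks, 1250 RFX2 peaks and 9318 RFX3 peaks, so no value below has a replicate error and no test between factors was made. Read numbers were not stated, so the depth is unknown. A gene without a peak was not called in that list, which does not show that the factor was absent. Peak lists hold no RNA levels, so the identity of the cells was not checked against marker genes.

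RFX proteins are winged-helix factors that bind the X-box, an inverted repeat in DNA, and they control many genes of the cilium. The sperm tail is built on an axoneme, the same microtubule core that moves the cilia of ependymal cells, so genes first named from the testis can also serve in ciliated epithelia. The Spata symbols mark genes tied to the testis or to spermatogenesis and not a protein family. Their products range from meiotic recombination factors to parts of the sperm neck and of the photoreceptor cilium.

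The summit is the position of strongest signal in a peak, and a gene counted as bound if one fell within 1 kb of its annotated start or end. RFX1 and RFX3 both reached 9 of the 24 Spata genes (37.5%, interval 18.8 to 59.4), and these were the same 9 genes. RFX2 was bound at 3 of them (12.5%, 2.66 to 32.4), all within the 9. Across all protein-coding genes, RFX1 was bound at 9.05%, RFX2 at 2.08% and RFX3 at 7.94%. At least 1 RFX was bound at 10.1% of all genes and all 3 at 2.06%. Intervals are 95% exact Clopper-Pearson intervals and cover the counting of genes only. The members were chosen with earlier results of these data known, so these shares are descriptions.

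Spata7, Spata13 and Spata18 had all 3 factors. Spata2, Spata4, Spata6, Spata17, Spata24 and Spata33 had RFX1 and RFX3 without RFX2, a pattern found in 4.82% of all protein-coding genes. No Spata gene had RFX1 alone or RFX3 alone. Of all protein-coding genes, 1980 had RFX1 and 1738 had RFX3. Both were found without RFX2 at 1056 genes and with it at 451. Most genes with either factor thus had both, so the matching sets are not read as particular to the Spata genes. The other 15 members had no summit within 1 kb.

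**Figure D1:**
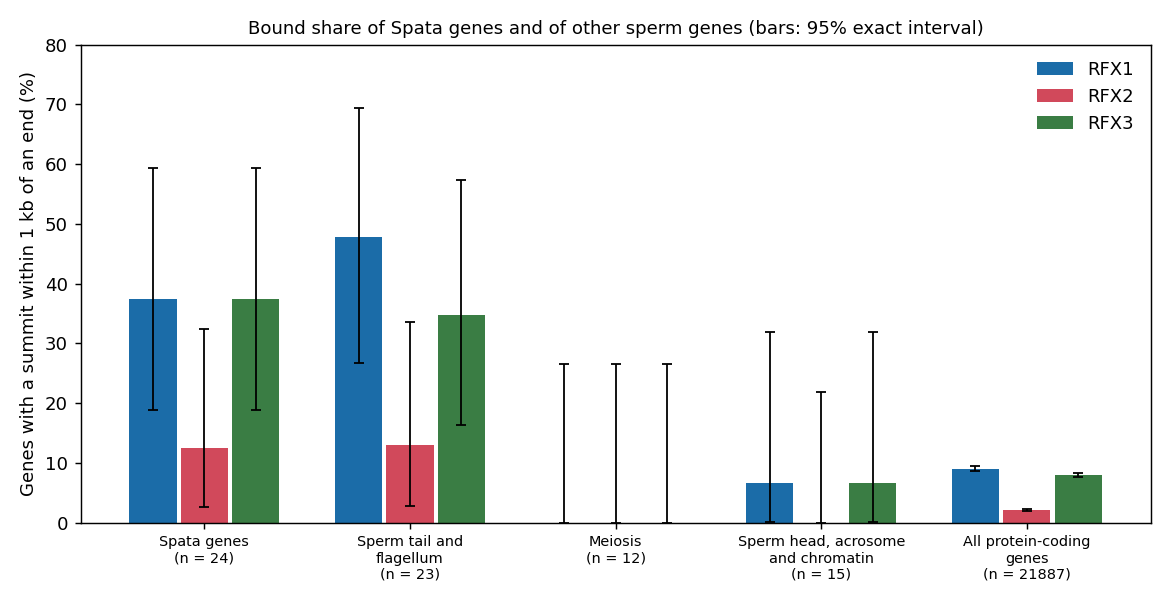
Share of genes (%) with a summit within 1 kb of a gene end for RFX1, RFX2 and RFX3, in the Spata genes, 3 other lists of sperm genes and all protein-coding genes, with error bars for the 95% exact interval. RFX1 and RFX3 reached 37.5% of the Spata genes, against 9.05% and 7.94% of all genes, and the 12 meiosis genes had no bound member.

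The DNA at 4 of the bound starts is shown because the summits fall in a 300-base promoter window of RefSeq (GRCm38.p6), which runs from 250 bases before to 50 after a listed transcript start. Spata7, Spata6 and Spata33 have such a window of their own. The Spata17 summits lie in a window of Gpatch2, the gene that starts opposite to it. Capitals mark the bases within 30 bp of the RFX1 summit. Each window is given on the plus strand, which is the strand of the gene it is named for: Spata7 at chr12:98627892-98628191, Spata6 at chr4:111719760-111720059, Spata33 at chr8:123212608-123212907 and Gpatch2 at chr1:187215261-187215560.
Spata7: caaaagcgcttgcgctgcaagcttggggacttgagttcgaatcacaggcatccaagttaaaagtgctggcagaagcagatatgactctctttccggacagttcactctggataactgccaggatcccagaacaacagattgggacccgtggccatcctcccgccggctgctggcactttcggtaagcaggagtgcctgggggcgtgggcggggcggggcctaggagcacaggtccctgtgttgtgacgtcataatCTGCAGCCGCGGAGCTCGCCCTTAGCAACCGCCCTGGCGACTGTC
Spata6: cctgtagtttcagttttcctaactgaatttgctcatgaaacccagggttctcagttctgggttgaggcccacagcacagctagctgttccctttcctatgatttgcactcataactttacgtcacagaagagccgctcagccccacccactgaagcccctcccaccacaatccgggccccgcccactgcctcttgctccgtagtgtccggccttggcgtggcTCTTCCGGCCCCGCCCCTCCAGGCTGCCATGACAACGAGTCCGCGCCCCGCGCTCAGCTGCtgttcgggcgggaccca
Spata33: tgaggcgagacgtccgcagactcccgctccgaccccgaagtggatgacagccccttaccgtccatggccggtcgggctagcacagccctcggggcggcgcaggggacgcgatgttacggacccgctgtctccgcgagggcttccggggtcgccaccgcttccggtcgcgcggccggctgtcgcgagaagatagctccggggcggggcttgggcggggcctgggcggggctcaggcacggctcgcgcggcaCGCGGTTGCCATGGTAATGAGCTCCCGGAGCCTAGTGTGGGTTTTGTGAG
Gpatch2: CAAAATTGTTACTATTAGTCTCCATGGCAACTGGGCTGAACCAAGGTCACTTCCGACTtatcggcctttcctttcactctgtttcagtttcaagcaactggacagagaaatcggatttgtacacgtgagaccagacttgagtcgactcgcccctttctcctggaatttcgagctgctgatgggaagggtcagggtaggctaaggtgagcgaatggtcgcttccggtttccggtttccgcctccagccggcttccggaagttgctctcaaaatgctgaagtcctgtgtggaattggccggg

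Counted from the first base of each window, the RFX1 summit stood at base 286 in Spata7, base 253 in Spata6, base 281 in Spata33 and base 28 in Gpatch2. The RFX3 summit stood at base 285, base 255, base 256 and base 65 of the same windows. The RFX2 summit of Spata7 fell 4 bases past the window's end.

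An X-box consensus made of the arm GTTGCC, the bases AT and the arm GGCAAC, with up to 2 mismatches in 14 bases, matched close to the summits in 3 of these windows. The consensus reads the same on both strands. This search was chosen after the promoter sequences had been read. The best matches are printed with that of Spata4, whose own start also carries one.
Spata6 (chr4:111720004-111720017): GCTGCCATGACAAC
Spata33 (chr8:123212862-123212875): GTTGCCATGGTAAT
Gpatch2 (chr1:187215278-187215291): GTCTCCATGGCAAC
Spata4 (chr8:54600775-54600788): GTTGCCATAGAAAC

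Positions in a substitution are counted from 1 at the first base of the consensus, with the consensus base first. The Spata6 site differed by T2C and G10A, and its middle lay 1 bp from the RFX1 summit and 3 bp from the RFX3 summit. The Spata33 site differed by C11T and C14T and lay 19 bp from the RFX1 summit and 5 bp from the RFX3 summit. The site in the Gpatch2 window differed by T3C and G4T and lay 3 bp from the RFX1 summit of Spata17 and 40 bp from its RFX3 summit. The Spata4 site differed by G9A and C11A and began 6 bases before the listed start of Spata4. No summit lay within 1 kb of the Spata4 start in any of the 3 lists.

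Such a match stood in 1.2% of all 32851 promoter windows and in 3 of the 30 windows of Spata genes, those of Spata4, Spata6 and Spata33. It stood in 17.3% of windows that hold an RFX1 summit, in 35.9% of those that hold an RFX2 summit and in 20% of those that hold an RFX3 summit. In the 222 windows with both an RFX1 summit and a match, the median distance between them was 4 bp, and 85.1% were within 20 bp. Of 233 protein-coding genes with a match in a window, 71 had no RFX bound at either end.

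The search fixed in the design took GTNNCC and GGNNAC with 0 to 3 bases between them, a pattern that is also its own reverse complement. It matched 3.86% of all windows and 30.4% of windows with an RFX1 summit. In the Gpatch2 window it matched the same site as above, 3 bp from the RFX1 summit of Spata17. Among the windows listed under Spata genes it matched only Spata45, with GTCTCCATGGTTAC starting 51 bases before the listed start, and Spata45 was not bound. The arm alone, GTTGCC or its complement GGCAAC on either strand, was found in 12.5% of all windows, in windows of Spata4, Spata33 and Spata45 and in the Gpatch2 window. The arm is contained in the 14-base consensus, so these searches overlap. The Spata7 window held none of these patterns. It ends soon after the RFX1 summit, at base 286 of 300, and before the RFX2 summit, and the DNA past it was not searched. A match is a description of the letters and not a mapped binding site.

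Spata7, Spata17 and Spata4 were placed in a cilium group, which was drawn up with earlier results of these data known. All 3 counted as bound in the RFX1 and RFX3 lists (interval 29.2 to 100), and 1 in the RFX2 list (0.84 to 90.6). The matching shares over the whole set of protein-coding genes are 9.05% (RFX1), 7.94% (RFX3) and 2.08% (RFX2). These counts describe a chosen group, and a role of its members in cilia was not tested. Peak values below are the authors' own: the −log10 q of the peak caller, its fold enrichment over background, and the rank of the peak within its list by −log10 q. Spata7 (NCBI gene 104871, chr12:98628129-98669819) encodes a protein of the photoreceptor connecting cilium that is mutated in an inherited retinal dystrophy. Its RFX1 peak had a −log10 q of 103.1 and a fold of 12.9, at rank 556. Its RFX3 peak had 48.2 and 4.52, at rank 1585, and its RFX2 peak had 20 and 7.66, at rank 1105 of 1250. The RFX2 value was close to the lowest −log10 q kept in that list, 18.2. The 3 summits lay 48, 66 and 47 bp inside the gene from its start for RFX1, RFX2 and RFX3.

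Spata17 (NCBI gene 74717, chr1:187009614-187215511, minus strand) encodes a protein with calmodulin-binding IQ motifs. Its RFX1 peak had a −log10 q of 82.6 and a fold of 10.7, and its RFX3 peak had 66.2 and 9.28. The ranks were 937 and 825. The summits were 223 and 186 bp inside the gene from its start. They also lay 682 and 719 bp from the outermost start of Gpatch2, whose transcripts run the opposite way. Another listed Gpatch2 transcript start, at 187215511, has the same coordinate as the Spata17 start, so the summits were equally far from both. The site cannot be given to one gene by position.

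Spata4 (NCBI gene 69281, chr8:54600781-54610098) was the member whose bound end was the 3′ end. The RFX1 summit lay 202 bp and the RFX3 summit 218 bp past that end, and no other annotated gene of any type had an end within 1 kb. The site had the highest folds among the bound Spata genes in both lists, 17.1 for RFX1 and 27.1 for RFX3. Its −log10 q of 68.9 and 81 placed it at ranks 1337 and 510, while by fold the ranks were 333 and 138. A second site lay about 6 kb before the gene start, outside the window. All 3 factors peaked there, at 6035 bp (RFX1), 6025 bp (RFX2) and 6020 bp (RFX3) from the start, with folds of 6.73, 11 and 27.1. The RFX3 fold and −log10 q (81) at that site were identical to those at the 3′ end. Such ties were common, with 5379 of the 9318 RFX3 peaks sharing both values with another peak of the list.

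Of the 4 genes grouped under sperm neck, tail and mitochondria, RFX1 and RFX3 were bound at 3 (interval 19.4 to 99.4). RFX2 was bound at 1 (0.631 to 80.6). The shares of all protein-coding genes were 9.05% for RFX1, 7.94% for RFX3 and 2.08% for RFX2. This group too was drawn up with earlier results known, so the counts are descriptions. Spata6 (NCBI gene 67946, chr4:111719951-111829142) is needed to form the connecting piece that joins the sperm head to the tail. Its RFX1 peak had a −log10 q of 57.8 and a fold of 10.9, and its RFX3 peak had 53.6 and 5.78. The summits lay 61 and 63 bp inside the gene from its start, over the X-box match printed above. A weaker RFX1 peak (−log10 q of 23.8) lay 1683 bp inside the gene.

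Spata18 (NCBI gene 73472, chr5:73651380-73679584) encodes a protein of mitochondrial quality control, also called Mieap. Its peaks had a −log10 q of 94.4 for RFX1, 31.7 for RFX2 and 33.7 for RFX3, with folds of 12.9, 10 and 6.32. The summits were 461, 464 and 461 bp inside the gene from its start, so the 3 factors peaked within 3 bp of each other. This position was nearer to a noncoding neighbour than to the Spata18 start. The summits lay 13, 10 and 13 bp from the start of the long noncoding RNA gene Gm34902, which is annotated on the minus strand.

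Spata33 (NCBI gene 320869, chr8:123212837-123222045) encodes a protein that anchors calcineurin to sperm mitochondria. It had the weakest peaks of the bound members, with a −log10 q of 14.8 for RFX1 and 14.3 for RFX3 and folds of 4.81 and 2.97. The ranks were 6436 of 7440 and 6340 of 9318. The summits lay 51 and 26 bp inside the gene, and 100 and 75 bp from the start of Chmp1a, an ESCRT-III gene that runs the opposite way. The X-box match printed above for Spata33 also lies in the promoter window of Chmp1a. Neither the match nor the site can thus be given to one gene by position. Spata19, a gene of the mitochondrial sheath, was the unbound member of the group, and its nearest summit of any list was 107062 bp away.

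**Figure D2:**
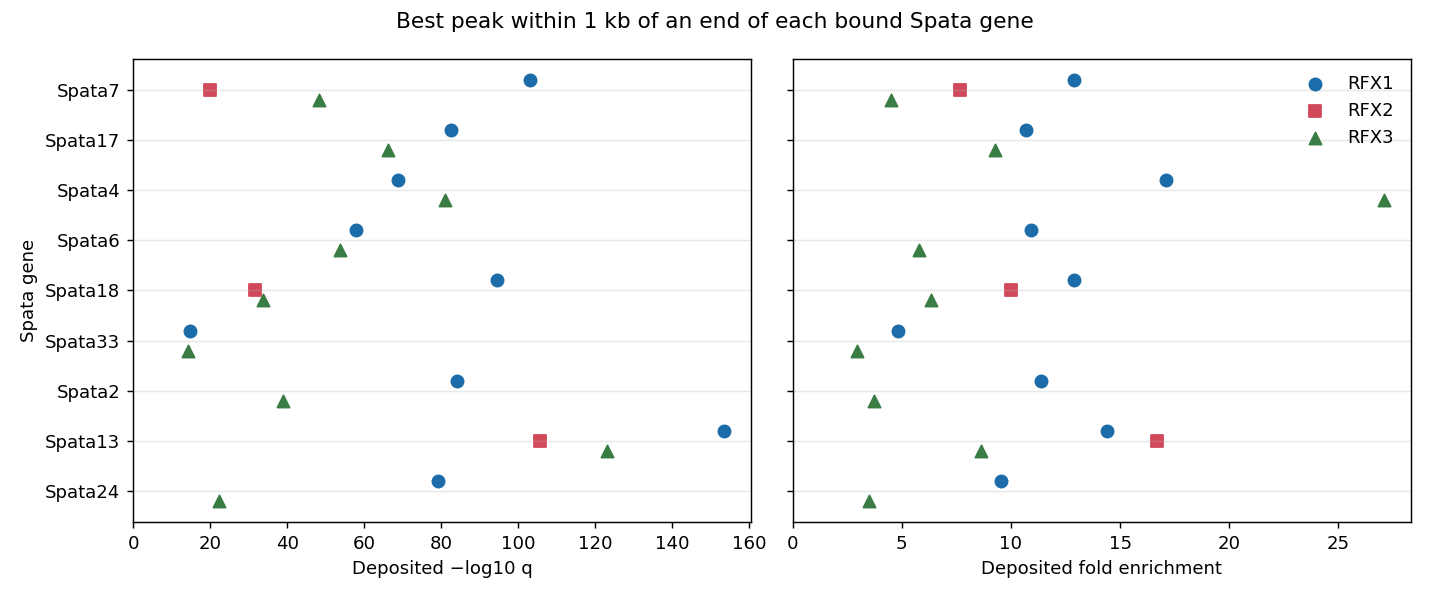
Deposited −log10 q (left) and fold enrichment (right) of the best peak at each of the 9 bound Spata genes, with 1 symbol per RFX. Spata13 had the highest −log10 q of the members in each list, Spata4 had the highest RFX1 and RFX3 fold, and Spata33 had the lowest RFX1 and RFX3 values on both scales.

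Spata13 (NCBI gene 219140, chr14:60485168-60764556) encodes a guanine nucleotide exchange factor, also called ASEF2. It was the signalling member and carried the strongest peaks of the Spata genes by −log10 q. The values reached 153.5 for RFX1, 105.7 for RFX2 and 123.0 for RFX3, at ranks 138, 39 and 117. Its folds were 14.4, 16.7 and 8.62. The summits lay 541, 558 and 542 bp inside the gene from its start, the largest distances among the bound members. The transcript starts listed for Spata13 in the promoter table, at 60634705 and 60732904 of chromosome 14, lie far downstream, so the summits are near the outermost annotated start only.

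Among the members grouped under meiosis and germ cell differentiation, Spata2 was bound by RFX1 and RFX3, and Spata22 and Spata5 had no summit within 1 kb. Spata2 (NCBI gene 263876, chr2:167481136-167493238, minus strand) encodes an adaptor that brings the deubiquitinase CYLD to the linear ubiquitin ligase. Its peaks had a −log10 q of 84.2 for RFX1 and 38.95 for RFX3 and folds of 11.4 and 3.72. The summits lay 96 and 106 bp inside the gene from its outermost annotated start. They were at −268 and −258 bp from the transcript start listed in the promoter table, 167492874, which is upstream of it. They lay 497 and 487 bp from the start of Rnf114, a ubiquitin ligase gene that overlaps Spata2 on the other strand. A second pair of peaks lay 1746 bp (RFX1) and 1737 bp (RFX3) inside Spata2, with a −log10 q of 42.1 and 21.6. Spata22, which acts with MEIOB in meiotic recombination, was 303374 bp from the nearest summit. Spata5, an AAA ATPase gene, was 94987 bp away.

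Among the 10 members with no role assigned here 1 was bound (10%), near the 10.1% of all protein-coding genes with at least 1 RFX. This gene was Spata24. Its RFX1 peak had a −log10 q of 79.3 and a fold of 9.55, and its RFX3 peak had 22.4 and 3.49. The summits lay 32 and 26 bp outside one annotated end of the gene. The 3 members grouped under acrosome and sperm head, Spata1, Spata16 and Spata46, had no summit within 1 kb. With a 5 kb window Spata16 counted as bound by RFX1 and RFX3.

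RFX1 and RFX3 occupied the same spots at the members. Their peaks overlapped at 9 of 9 genes, with a median of 6 bp between summits and a range from 0 bp in Spata18 to 37 bp in Spata17. RFX1 and RFX2 summits were 3 to 18 bp apart and RFX2 and RFX3 summits 3 to 19 bp apart at the 3 genes with both. Distances between factors were not measured at other genes, so they are not read as particular to the Spata genes. Of the 9 bound members, 7 were bound at the start and Spata4 at the 3′ end, while the strand of Spata24 was not used here.

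The order of the members differed between the lists. By RFX1 −log10 q the first 3 were Spata13, Spata7 and Spata18, followed by Spata2 and Spata17. By RFX3 −log10 q they were Spata13, Spata4 and Spata17. The median rank of the bound members was 937 in RFX1, or 12.6% of the way down the list. In RFX3 it was 1585, or 17%. The best peaks of all bound protein-coding genes had median ranks at 29.1% and 29.7%. In RFX2 the 3 members had a median rank at 46.4%, against 44.2% for all bound genes.

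The median fold of the members was 11.4 in RFX1, 10 in RFX2 and 5.78 in RFX3. Over all bound genes the medians were 8.49, 8.74 and 4.84. In RFX3, whose whole list had a median fold of 7.45, members with a high −log10 q could thus have a low fold. Spata13 stood at rank 117 by −log10 q and at rank 3462 by fold, and Spata7 at 1585 and 7970.

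The 3 members with RFX2 were the 3 with the highest RFX1 −log10 q. A like split was seen over all protein-coding genes. Of 448 genes whose RFX1 peak reached at least the 94.4 of Spata18, 344 (76.8%, interval 72.6 to 80.6) also had RFX2. Of the 1532 RFX1 genes below it, 111 (7.25%, 6 to 8.66) had RFX2. The 6 members without RFX2 all fell in the second class. The value 94.4 was chosen after the members' values were seen.

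The lists were also compared at equal length, keeping the 1250 peaks of highest −log10 q in each. RFX1 was then bound at 6 Spata genes and RFX2 and RFX3 at 3 each. All protein-coding genes were bound in 3.1%, 2.08% and 2.07%. Spata13 was the gene that had all 3 factors at this length. Spata7 and Spata18 had RFX1 and RFX2, Spata17 had RFX1 and RFX3, Spata2 and Spata24 had RFX1, and Spata4 had RFX3. Spata6 and Spata33 had none. The identity of the RFX1 and RFX3 sets seen in the full lists thus did not hold at equal list length.

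**Figure D3:**
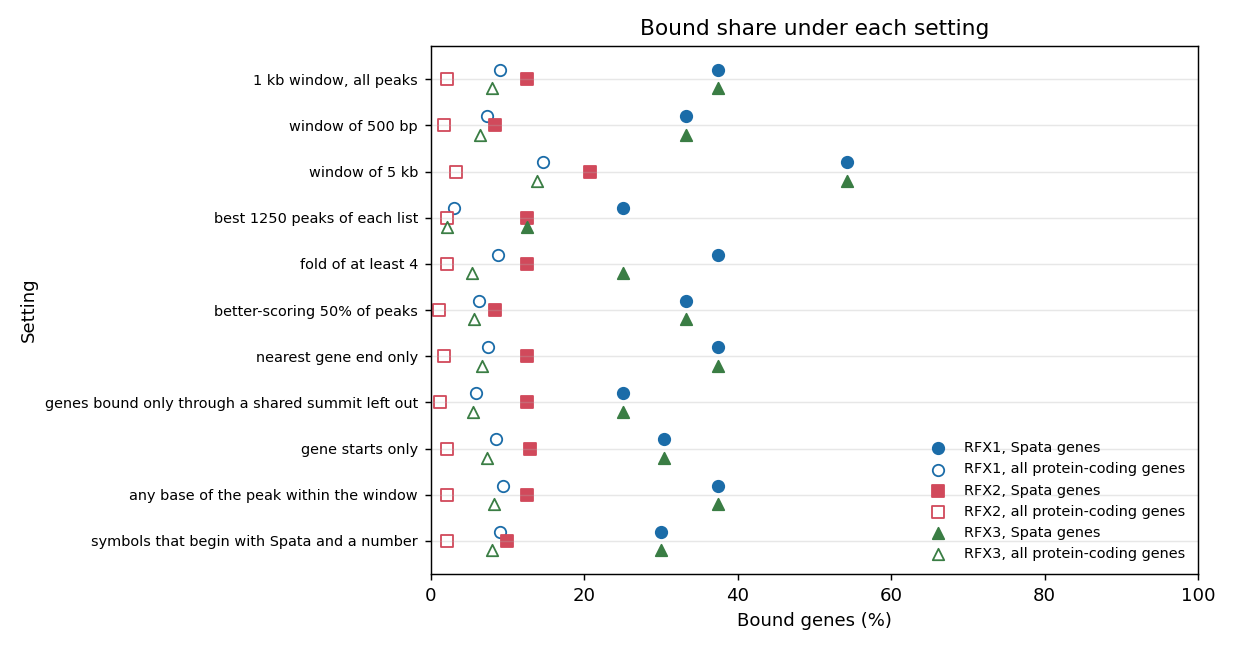
Share of bound genes (%) under each setting for the Spata genes (filled symbols) and all protein-coding genes (open symbols), by RFX. The Spata share ranged from 25% to 54.2% in RFX1, from 8.33% to 20.8% in RFX2 and from 12.5% to 54.2% in RFX3, above the share of all genes in each of these settings.

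Of the 15 unbound members, 4 had a summit within 10 kb of an end. Spata16, grouped under acrosome and sperm head, was the closest to the window. Its RFX1 and RFX3 summits lay 1834 and 1811 bp inside the gene from its start. Their folds were 15.9 and 18.2 and their −log10 q 76.3 and 74, above those of several bound members, and no RFX2 peak was called there. Spata3 had weak RFX1 and RFX3 peaks 2381 and 2365 bp beyond its end (−log10 q of 12.3 and 11.2).

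The other sites near unbound members lay at a neighbouring gene. At Spata45 all 3 factors peaked between 3376 and 3462 bp away, which is 492 to 578 bp from an end of Tatdn3, with a −log10 q of 90.7 for RFX1, 21.6 for RFX2 and 88.7 for RFX3. At Spata25 they peaked 4484 to 4491 bp away, 205 to 212 bp from an end of Zswim1, with 153.5, 43.1 and 29.5. Spata1, Spata5, Spata9, Spata19, Spata20, Spata21, Spata22, Spata31, Spata32, Spata46 and Spata48 had no summit within 10 kb. Spata20 just missed it, with an RFX1 summit at 10002 bp. The nearest summit of an unbound member was 17098 bp away at the median and 335159 bp at most, for Spata31.

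Bound members were longer than unbound ones at the median, with 28205 bp against 11931 bp, and the median of all protein-coding genes was 17169 bp. Lengths overlapped widely, from 5498 to 279389 bp and from 1153 to 345630 bp.

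Other sperm genes were counted in the same way and are read against the shares of all protein-coding genes, 9.05% for RFX1, 2.08% for RFX2, 7.94% for RFX3 and 10.1% for at least 1 of them. Of 23 genes of the sperm tail and flagellum, RFX1 was bound at 11 (47.8%, interval 26.8 to 69.4), RFX2 at 3 and RFX3 at 8. The 8 with RFX1 and RFX3 were Spef1, Spag16, Spag6l, Odf2, Tssk4, Spag8, Spef2 and Ropn1l, of which the last 3 had all 3 factors. Spag17, Tekt4 and Tssk6 had RFX1 without RFX3. The other 12 genes of this list, Spag6 among them, had no RFX bound. Of 12 meiosis genes none was bound by any RFX, for which the exact interval reaches 26.5% and so includes the share of all genes. Of 15 genes of the sperm head, acrosome and chromatin, 1 was bound by RFX1 and RFX3 (6.67%), near the share of all genes. It was Dpy19l2, which acts in sperm head shaping. Among the Spata roles, 6 of 7 tail and cilium members and none of 3 sperm head members were bound within 1 kb. The roles and gene lists were chosen with earlier results of these data known, so the high counts are descriptions only. At the share of all genes a group of 3, 12 or 15 would have few or no bound members, so these low counts show nothing particular to meiosis or the sperm head. No test was made.

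Families named by symbol and number were counted as well. RFX1 was bound at 4 of 9 Spag genes (44.4%) and RFX3 at 2 (22.2%). In the 32 Tex genes RFX1 was bound at 2 (6.25%) and RFX3 at 4 (12.5%), near the 9.05% and 7.94% of all genes. In the Spaca genes both were bound at 1 of 7, which was Spaca9, and in the Odf genes at 1 of 4, which was Odf2, and counts of 1 in such small families cannot be told from the share of all genes. Several of these genes are also in the lists above, so the counts are not independent of each other.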

How the data were processed

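ChIP-seq peaks of RFX1, RFX2 and RFX3 were used as 1 merged list per RFX, from 2 ChIP samples each. Per the submitters' processing notes, the build was GRCm38 and the tools were MACS2 (2.0.10.20130520), Bowtie (0.12.7) and CASAVA (1.8.2), with no roles stated. The rule for reproducibility and the control were not stated. The deposited fold enrichment, the deposited −log10 q and the deposited summit offset (the summit column) follow the narrow-peak layout, and the deposited score was not used. The −log10 p (1 column in each of 3 lists) was not used either. Values were ranked within their own list only. Depth is unknown.

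Genes came from the RefSeq table of GRCm38.p6, which gives no strand. Strand and start sites came from the RefSeq promoter table, which holds 23 of the 24 members (30 windows). Spata24 was not in it. Every bound member was named, and unbound members with a summit within 10 kb were given with distances. The members, role groups and gene lists were chosen with earlier results of these data known. Calling and motif search were tested on simulated data (Python 3.11.15, pandas 2.3.3, scipy 1.17.1). Alternatives covered the window, peak subsets, shared summits, gene starts, peak edges, symbols, ranking by fold, summit distance and motif.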

Additional observations from a re-analysis of the deposited data

How the results depend on the processing

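The lists merge their replicates, so no replicate could be left out. No paired analysis was possible because the deposited columns carry no replicate number and no value came from a test. The number of bound Spata genes stayed within 1.5 times the main count in each list under most settings. These were a 500 bp window, a fold of at least 4, the better-scoring 50% of peaks, nearest gene ends, shared summits left out and gene starts. Peak edges and longer symbols, which can only keep or raise a count, left it unchanged. Longer symbols, those that begin with Spata and a number, gave 30 genes. The share bound was then 30% in RFX1 and RFX3 and 10% in RFX2, against 37.5% and 12.5%. With a 500 bp window Spata13 was lost from all 3 lists. With a fold of at least 4, RFX3 lost Spata2, Spata24 and Spata33, and with shared summits left out RFX1 and RFX3 lost Spata2, Spata17 and Spata33. With a 5 kb window RFX2 was bound at 5 members and all 3 factors at 5, through Spata25 and Spata45, against 3.36% of all genes for RFX2. RFX1 and RFX3 were then bound at 13 members each, through Spata3, Spata16, Spata25 and Spata45, against 14.6% and 13.8% of all genes. With the best 1250 peaks of each list RFX3 was bound at 3 members, and the sets became 1 with all 3 factors, 1 with RFX1 and RFX3, 2 with RFX1 and RFX2, 2 with RFX1 alone and 1 with RFX3 alone, since fewer peaks were kept. The median rank of the RFX3 peaks was 1585 by −log10 q and 6807 by fold. The number of bound members with a motif in a promoter window was 0 with the gapped pattern, 2 with the arm alone and 3 with up to 2 mismatches, and that of unbound members was 1, 1 and 0. These counts leave out the Gpatch2 window at the Spata17 summits, which held all 3 patterns, and include Spata4 for the arm and the mismatch search, although no summit lay near its start. The mismatch search was chosen after seeing the data.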

Other observations

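Several long Spata genes held RFX peaks deep in their bodies. In Spata13, RFX1 and RFX3 shared a peak 69272 and 69280 bp inside the gene from its start, with a −log10 q of 24.7 and 10.6, and each factor had another peak in the gene without the other. Spata9, which was not bound at its ends, had an RFX1 summit 16083 bp and an RFX3 summit 15967 bp from its start, with a −log10 q of 27.5 and 25. Spata48 held an RFX1 peak 17098 bp from its end (−log10 q of 20.3). In Spata16, RFX3 had 2 further peaks 189777 and 213765 bp from the start (−log10 q of 19.9 and 9.38). Spata17 held an RFX1 peak of low score (13.4) 67563 bp from its 3′ end. None of these peaks deep in a gene had RFX2. All had a lower −log10 q than the median best peak at the ends of all bound genes, 49.1 in RFX1 and 32.6 in RFX3. Over all peaks of a list the medians were lower, 29.1 in RFX1 and 19.9 in RFX3. The deep RFX1 peaks were below theirs. In RFX3 the Spata9 peak (25) was above it, the stronger of the 2 further Spata16 peaks (19.9) was at it, and the others were below.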
